A study of Mus musculus with 47 samples.

Results

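Rag1, Rag2, Dntt, Cd1d1, Arpp21, Ly6d and Ets2 are genes of the recombinase and of the double positive stage of thymocyte development. They were followed here across 47 mouse T-cell lymphoblastic tumours. The probe sets whose single platform symbol is one of these names were taken: 12 of the 22690 probe sets on the array, standing for 7 of the 12393 genes with such a probe set. All 12 probe sets passed the filter on low signals, which left 8814 genes to test. The number of probe sets was 3 for Dntt, 3 for Arpp21, 2 for Cd1d1 and 1 for each of the other genes, and the brightest one on average stood for its gene. Signals are linear MAS5 values in arbitrary units, so a level was compared between tumours for 1 probe set and never between probe sets.

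The tumours carry 14 titled backgrounds. The transgenic tumours are TLX1 (6 tumours), the double transgenics Tal1-LMO2 and olig1-LMO1 (3 each), LMO1, ThPOK, Nup98HoxD13 and beta-catenin (3 each), and Tal1 and Pokemon (2 each). The others are p53 knockout and Ikaros Plastic (3 each), rag E2A knockout and E2A knockout (2 each), and Cdkn2a knockout with retroviral insertional mutagenesis (9). The labels give no mouse strain, age, sex or transgene promoter, and no normal thymus was analysed here. They do not say that the tumours came from separate mice, so each p-value measures only the spread between these samples. All 6 TLX1 positive tumours are the TLX1 transgenics, so the effect of this label and that of the background cannot be told apart.

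A thymocyte assembles its T cell receptor genes by cutting and rejoining the DNA of gene segments. RAG1 and RAG2 form the enzyme that cuts, RAG1 carrying the active site and RAG2 being needed for its activity, and terminal deoxynucleotidyl transferase (Dntt) adds untemplated bases at the joins. Both Rag genes are on while the beta chain is assembled in double negative cells and again while the alpha chain is assembled in double positive cells, which carry CD4 and CD8 together. E proteins, among them E2A (gene Tcf3) and HEB (gene Tcf12), bind E box motifs and activate these genes, and TAL1 and LMO proteins dampen E protein activity. Cd1d1 on double positive cells presents lipids to developing natural killer T cells. Arpp21 encodes an RNA-binding phosphoprotein and hosts a microRNA in an intron. Ly6d encodes a surface protein of lymphoid progenitors, and Ets2 a transcription factor of the ETS family.

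Array medians ran from 49.5 to 106 signal units. At least 7 of the 8 measured T cell markers of a list of 10 were above the array median in 46 of the 47 tumours. The exception was p53 knockout tumour 2, with 2 of 8 markers above the median and a summed T cell marker signal of 1657, against at least 7479 in every other tumour. Its summed endothelial and stromal marker signal was 25565, against at most 8528 elsewhere. Degraded RNA raises the 3'/5' ratio of the Gapdh controls, whose log2 was 1.87 to 2.86 in TLX1 tumours 2, 5 and 6 and at most 0.71 in every TLX1 negative tumour. The Lmo1 signal was 11.1 to 34.3 in tumours labelled olig1-LMO1 and 522 to 2344 in tumours labelled LMO1. It was 586 to 2526 in tumours labelled Nup98HoxD13, so Lmo1 goes against the first and the last of these labels and directions drawn from them rest on the label alone. In bulk tumours, fewer cells of a type and less RNA per cell cannot be told apart.

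Rag1 and Rag2 lie next to each other on chromosome 2 of GRCm38.p6, the build of the RefSeq table used for positions and sequences. Rag2 spans chr2:101624712-101632528 on the plus strand and Rag1 chr2:101638252-101649532 on the minus strand. Their 3' ends face each other across 5723 bases, and their starts lie 24820 bases apart. Dntt is at chr19:41029275-41059525, on another chromosome. The 250 bases before the start of these 3 genes are shown because the 3 genes act in 1 reaction and their levels are compared below. Capitals mark the E box forms CAGGTG and CAGCTG, the Runx core TGTGGT and the CCAAT box on either strand, which appears as ATTGG where it lies on the opposite strand.

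Rag1, chr2:101649533-101649782, minus strand: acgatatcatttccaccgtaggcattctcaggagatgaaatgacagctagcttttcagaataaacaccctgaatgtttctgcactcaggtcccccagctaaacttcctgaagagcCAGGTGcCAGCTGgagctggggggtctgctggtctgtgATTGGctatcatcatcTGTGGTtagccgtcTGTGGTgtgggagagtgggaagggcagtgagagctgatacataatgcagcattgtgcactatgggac
Rag2, chr2:101624462-101624711, plus strand: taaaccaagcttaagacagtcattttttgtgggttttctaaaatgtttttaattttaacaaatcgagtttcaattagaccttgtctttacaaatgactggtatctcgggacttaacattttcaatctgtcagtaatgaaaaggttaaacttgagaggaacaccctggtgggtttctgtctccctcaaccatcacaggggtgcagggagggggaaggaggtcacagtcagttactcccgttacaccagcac
Dntt, chr19:41029025-41029274, plus strand: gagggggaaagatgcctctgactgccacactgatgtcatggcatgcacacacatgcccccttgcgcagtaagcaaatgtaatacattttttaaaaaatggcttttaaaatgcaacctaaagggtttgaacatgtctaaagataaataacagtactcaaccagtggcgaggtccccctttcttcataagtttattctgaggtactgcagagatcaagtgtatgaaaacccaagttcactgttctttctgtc

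In the Rag1 window a CAGGTG lies at -135 to -130 from the start and a CAGCTG, which reads the same on both strands, at -128 to -123. A TGTGGT lies at -81 to -76 and another at -67 to -62, and a CCAAT box lies on the opposite strand at -97 to -93. The Rag2 and Dntt windows hold 0 matches to these 4 motifs. Of 32851 mouse promoter windows of the same length, searched on both strands, 17.2% hold CAGGTG, 13% CAGCTG, 14% TGTGGT and 33.8% CCAAT, and 2.5% hold both E box forms. These are matches of letters in a window and are no measure of binding.

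Rag1 was above the array median in 45 of the 47 tumours. It read 2471, 3337 and 4887 in Nup98HoxD13 tumours, 2787 and 2986 in Pokemon tumours, and 1585, 3446 and 3625 in LMO1 tumours. These 3 backgrounds have the highest mean log2 levels. Tumours of Tal1-LMO2 (1877, 2094 and 2411), rag E2A knockout (1609 and 2067), E2A knockout (1689 and 2604), beta-catenin (1632, 1739.8 and 2046) and Tal1 (1471 and 1769) follow, each within a narrow range.

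In several other backgrounds single tumours set the Rag1 mean. Rag1 read 104 in olig1-LMO1 tumour 3, against 1555 and 1430.2 in tumours 1 and 2. In p53 knockout tumours it read 949, 13.8 and 5215, which span nearly the whole range of the series. In the 9 Cdkn2a knockout tumours the lowest, median and highest Rag1 signals were 12.8, 949.9 and 2402. Only tumour 8 of these was below its array median, and the next lowest of the 9 read 708.

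The lowest Rag1 means belong to ThPOK and TLX1 tumours. The ThPOK tumours read 1092, 168 and 248. The TLX1 tumours gave a lowest, median and highest Rag1 signal of 87.1, 694 and 1219. TLX1 tumours 1, 2 and 6 (161, 87.1 and 205) lie well below tumours 3, 4 and 5 (1219, 1187 and 1183), with none between.

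Rag2, measured by its own probe set, was above the array median in 21 tumours, and in all of these Rag1 was above it too. Rag1 alone was above it in 24 tumours, Rag2 alone in 0 and neither in 2, p53 knockout tumour 2 and Cdkn2a knockout tumour 8. Those 2 tumours differ in their T cell markers: Cd3e, a subunit of the T cell receptor complex, read 84.4 in p53 knockout tumour 2, the lowest of all 47, and 1850 in Cdkn2a knockout tumour 8, near the median of 1830. Cd8a read 58.8 in p53 knockout tumour 2 and 19.6 in Cdkn2a knockout tumour 8, the lowest of all 47, while Cd4 read 17.7 and 713 in these tumours. Cdkn2a knockout tumour 8 thus had Cd3e and Cd4 above the median of all tumours and the lowest Rag1 and Cd8a of all 47. Its Dntt was the lowest at the probe set used and the second lowest at the other 2 Dntt probe sets.

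The Nup98HoxD13 tumours were high for Rag2 in all 3 cases (248, 613 and 351), as were LMO1 tumours 1 and 3 (499 and 257). The highest single value was 714, in the p53 knockout tumour that was also highest for Rag1. In tumours labelled olig1-LMO1 Rag2 read 1.5, 2.61 and 14.9, although Rag1 was well above the array median in the first and second of them. ThPOK tumours read 47.7, 5.05 and 4.68, and beta-catenin tumours 30.8, 5.34 and 41.3, all below their array medians. Among the 9 Cdkn2a knockout tumours Rag2 ran from 3.33 through a median of 89.5 to 156, with 6 above their array median. Among the 6 TLX1 tumours it ran from 16.8 through 25.8 to 139.9, with 1 above.

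**Figure D1:**
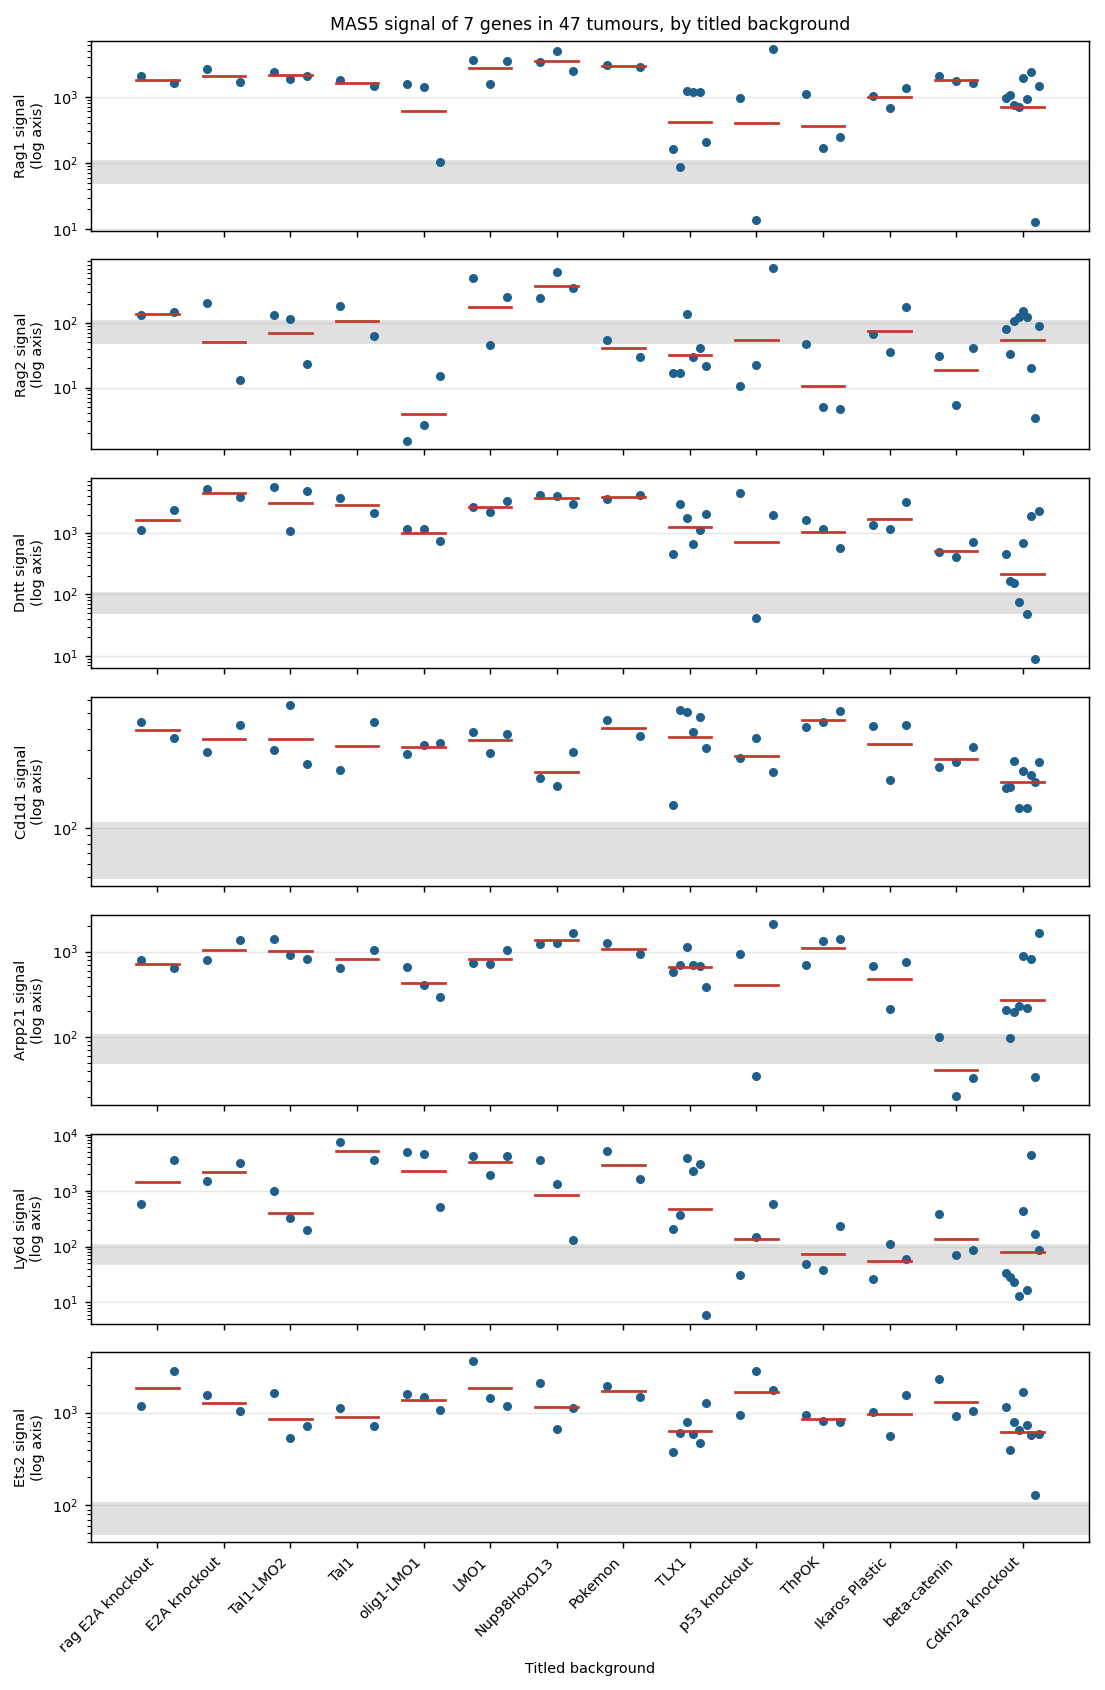
MAS5 signal (arbitrary units, log axis) of 7 genes in 47 tumours, 1 point per tumour and 1 column per titled background, with the geometric mean as a red line and the range of array medians as a grey band. Levels can be compared within a row only, and most Rag2 points lie in or under the band while most Rag1 points lie above it.

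Dntt was above the array median in 44 tumours. It was highest in E2A knockout tumours (5165 and 3918), Pokemon tumours (3569 and 4125) and Nup98HoxD13 tumours (4224, 3979.7 and 2961). Tal1-LMO2 tumours read 5718, 1089 and 4857. The lowest, median and highest signals of the 9 Cdkn2a knockout tumours were 8.79, 164 and 2261. These tumours fall into a high pair (1916 and 2261, tumours 7 and 9) and 7 tumours at 679 or below. Beta-catenin tumours read 488, 408 and 702.

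Cd1d1 was above the array median in all 47 tumours and varied least on the log2 scale, with an SD of 0.52 over all tumours. Its highest mean was in ThPOK tumours (414, 439 and 514) and its lowest in Cdkn2a knockout tumours, which ran from 131 through 189 to 255. Mice carry a near-identical neighbour of this gene, Cd1d2, and the probe set used has the suffix _s_at, which Affymetrix gives to probe sets that can match more than 1 transcript. The second Cd1d1 probe set was also lowest in Cdkn2a knockout tumours, at 62.5, 94.8 and 199 for the lowest, median and highest.

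Arpp21 was above the array median in 43 tumours. It read 1216, 1276 and 1653 in Nup98HoxD13 tumours, 698, 1326 and 1398 in ThPOK tumours and 939.8 and 1255 in Pokemon tumours. In beta-catenin tumours it read 100.4, 20 and 32.8, lower than every tumour of the other 13 backgrounds except p53 knockout tumour 2 (35.3), Cdkn2a knockout tumour 8 (34.0) and Cdkn2a knockout tumour 2 (97.2). Arpp21 lies at chr9:112065091-112236288 and contains the microRNA gene Mir128-2 on the same strand. Its mature product at chr9:112118644-112118664 is printed to show what the locus also encodes, with the seed (bases 2 to 8) in capitals. The level of this microRNA was not analysed here.

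mmu-miR-128-3p: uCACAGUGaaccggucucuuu

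Ly6d had the widest range, from 5.96 to 7323, and was above the array median in 34 tumours. Tal1 tumours read 7323 and 3546, LMO1 tumours 4146, 1939 and 4189, and Pokemon tumours 5055 and 1595. Ikaros Plastic tumours read 26.5, 111 and 59.5, and ThPOK tumours 48.3, 37.6 and 229.8. The 9 Cdkn2a knockout tumours ran from 13 through a median of 33.7 to 4439.5. Tumour 7 gave the highest of these and the next read 434. The 6 TLX1 tumours spanned nearly the whole range, from 5.96 through 1292 to 3908.

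Ets2 was above the array median in all 47 tumours. Its highest mean was in rag E2A knockout tumours (1188 and 2843), followed by LMO1 tumours (3612, 1427 and 1194). The 6 TLX1 tumours ran from 379.7 through 596 to 1287, and the 9 Cdkn2a knockout tumours from 128 through 652 to 1688. For each gene the backgrounds were ordered by mean log2 level and each was compared with the next one down. The ranges of these neighbours overlapped in 13 of 13 steps for every gene except Rag1, with 12 of 13, where all Tal1 tumours lie above all Ikaros Plastic tumours.

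The first comparison asked whether a gene's level varied between the 14 backgrounds more than within them, with limma's moderated F test on log2(signal + 15.9). The pseudocount of 15.9 is the 25th percentile of the deposited signals. Genes with an adjusted p under 0.05, taken over all tested genes, were called. By this rule 68.1% of the 8814 genes were called, and so were 6 of these 7 genes, a share that says little about them in particular. Ly6d (F = 4.14, adjusted p = 0.00111), Arpp21 (3.67, 0.00255) and Dntt (3.21, 0.006) had the largest F values. Rag2 (2.97, 0.00957), Cd1d1 (2.89, 0.0111) and Ets2 (2.23, 0.0421) followed.

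Rag1 was not called (F = 1.67, adjusted p = 0.133), with 36.8% of its variance between backgrounds, against 44.1% for Ets2 and 59.0% for Ly6d. It was called with array weights (F = 3.76, adjusted p = 0.00141). It was also called when p53 knockout tumour 2, p53 knockout tumour 3 or Cdkn2a knockout tumour 8 alone was left out (adjusted p 0.0259 to 0.198 over all 47 such fits). Without p53 knockout tumour 2 and Cdkn2a knockout tumour 8, an alternative chosen after seeing the data, Rag1 was called too (F = 3.59, adjusted p = 0.00278), as were all 7 genes and 6647 of the 8814. The Ets2 call is near the threshold: it was lost when any 1 of 21 tumours was left out (adjusted p 0.016 to 0.0673 over all 47 such fits), after quantile normalization (0.0576), without the variance trend (0.0502) and with the Gapdh 3'/5' ratio as a covariate (0.0599).

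Each background was then set against the unweighted mean of the other 13, giving 98 differences for the 7 genes, of which 9 were called. Values are log2 differences ± SE. Beside 5 calls in Cdkn2a knockout tumours there was 1 call each in beta-catenin, Ikaros Plastic, TLX1 and Nup98HoxD13 tumours, and none in the remaining 9 backgrounds. Over all genes the share called in those 9 was 21.7% in p53 knockout, 11.8% in ThPOK, 6.67% in Tal1-LMO2, 4.96% in Tal1 and 4.33% in E2A knockout tumours. It was 1.55% in rag E2A knockout, 1.03% in LMO1, 0.953% in Pokemon and 0.658% in olig1-LMO1 tumours. At an unadjusted p under 0.05, 4 genes differed in ThPOK, 2 in LMO1, 1 in Tal1 and 1 in olig1-LMO1 tumours. In p53 knockout tumours 6 of the 17 tested genes of a wider double positive list fell and 1 rose, with a list median of -1.27. There 4 of 8 tested recombination partners fell and 0 rose, and 1 of these 3 tumours is the one with few T cell markers.

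**Figure D2:**
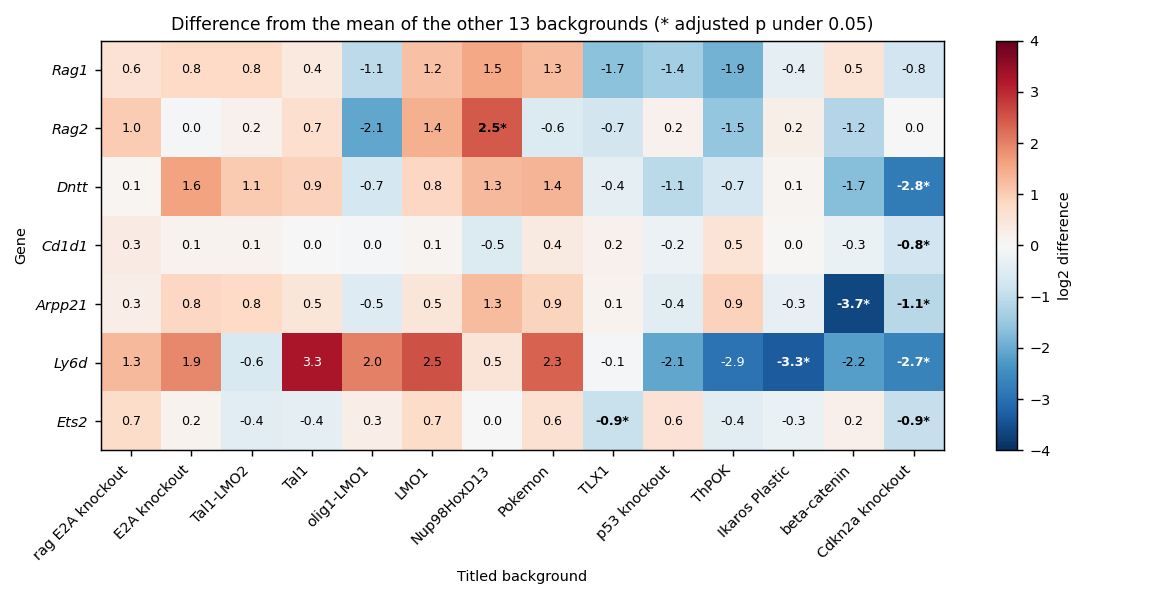
Log2 difference of each background's mean from the unweighted mean of the other 13, for 7 genes (rows) and 14 backgrounds (columns), with an asterisk where the adjusted p is under 0.05. The Cdkn2a knockout column holds 5 of the 9 asterisks, all on falls.

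In Cdkn2a knockout tumours 5 of the 7 genes fell and 0 rose, where 14.6% of all genes fell and 30.7% were called in either direction. Dntt fell by 2.79 ± 0.53 (adjusted p = 0.000136), with 7 of 9 tumours under the mean of the other backgrounds. Its other 2 probe sets fell by 1.42 ± 0.29 and by 2.82 ± 0.56. Ly6d fell by 2.67 ± 0.69 (adjusted p = 0.0033, 8 of 9 tumours) and Cd1d1 by 0.75 ± 0.16 (adjusted p = 0.000363, 9 of 9). The second Cd1d1 probe set fell by 1.11 ± 0.20 (adjusted p = 5.92e-05).

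Ets2 fell by 0.92 ± 0.27 (adjusted p = 0.00796, 8 of 9 tumours) and Arpp21 by 1.12 ± 0.40 (adjusted p = 0.0322, 6 of 9). Cdkn2a knockout tumours 5, 7 and 9 had 889, 826 and 1657 for Arpp21 and lie above that mean. The Arpp21 call was lost when any 1 of tumours 1, 2, 3, 4, 6 and 8 was left out, and its other 2 probe sets were not called (-0.47 ± 0.35 and -0.49 ± 0.25). The recombinase genes themselves were not called: Rag1 differed by -0.76 ± 0.57 (adjusted p = 0.321) and Rag2 by -0.01 ± 0.42 (adjusted p = 0.987).

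The summed signal of the 8 T cell markers was also low in Cdkn2a knockout tumours, with a lowest, median and highest of 7479, 9748 and 15360, against 1657, 18920 and 34440 in the other 38 tumours. All 8 markers were above the array median in each of the 9 tumours. Summed myeloid markers were 4257, 5384 and 6363, against 1000, 3980 and 45000 in the others. The part of these sums in the falls was not tested. Over all 47 tumours Dntt went with the T cell marker sum (Pearson r = 0.632, permutation adjusted p = 0.00168 over 56 relations; Spearman rho = 0.486, adjusted p = 0.0109; r = 0.556 without the 2 tumours of most extreme sum; r = 0.595 within backgrounds). Arpp21 did likewise (r = 0.566, permutation adjusted p = 0.00168, and Spearman rho = 0.473, adjusted p = 0.011). Its r was 0.439 without the 2 tumours and 0.666 within backgrounds. Among the same 56 relations, Dntt also went against the log2 array median (r = -0.466, permutation adjusted p = 0.0132). So did Arpp21 (r = -0.48, permutation adjusted p = 0.0116) and Ly6d (r = -0.411, permutation adjusted p = 0.0482). Within backgrounds these r were -0.408 for Dntt, -0.316 for Arpp21 and 0.292 for Ly6d, whose sign turned. The part of the array median in the falls was not tested.

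Other stage genes in Cdkn2a knockout tumours moved both ways. Of the 17 tested genes of the double positive list 2 rose and 2 fell, where 16.1% of all genes rose and 14.6% fell. These counts are near the shares over all genes and say little about the list. Cd4 rose by 1.03 ± 0.36 (adjusted p = 0.0269) and Bcl2l1, a survival gene of double positive cells named after its value was seen, by 0.43. Ptcra, the surrogate alpha chain of the pre-T cell receptor, fell by 2.65 ± 0.59 (adjusted p = 0.000814), and Lef1, a transcription factor, by 1.22 ± 0.34. Of 12 early progenitor genes Lyl1 and Flt3 rose and 2 fell, Notch1 (-3.44 ± 0.40) and Il2ra (-3.08 ± 0.57), which marks the double negative stage. The early progenitor counts too are near the shares over all genes. Cd8a was not called (0.69 ± 0.50). Of 15 tested regulators of Rag and Dntt 2 rose, Ikzf1 and Ets1, and 5 fell, Runx1 (-0.86 ± 0.23), Gata3, Bcl11b, Id2 and Lef1. Tcf3 (0.23 ± 0.15) and Tcf12 (-0.13 ± 0.15) were not called.

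In beta-catenin tumours Arpp21 fell by 3.65 ± 0.65 (adjusted p = 0.000115, 3 of 3 tumours). Tumours 2 and 3 were below their array medians, so the size depends on the pseudocount: the difference was -4.10 with a pseudocount of 1 and -2.78 with one at the median of all signals, and it was called in both. It was 1 of 7 genes called, where 7.42% of all genes fell and 18.8% were called. A second Arpp21 probe set fell by 2.09 ± 0.56 (adjusted p = 0.00648), and the third, the dimmest, was at -1.03 ± 0.39 (adjusted p = 0.0572). The call held in all 47 fits with 1 tumour left out. Dntt differed by -1.69 ± 0.85 (adjusted p = 0.168) and Rag1 by 0.55 ± 0.91. Of the 17 tested double positive genes 3 rose, Cd4 (2.31 ± 0.58), Cd5 and Slamf6, and 2 fell, Ptcra (-3.68 ± 0.95) and Cd24a, where 11.4% of all genes rose and 7.42% fell. The summed T cell markers (14020 to 17310) lie inside the range of the other tumours, and the summed B cell markers (5631 to 7503, against 256 to 13460 in the others) are high within it. The summed myeloid markers were 6484, 8605 and 10560 in beta-catenin tumours, against a lowest, median and highest of 1000, 4562 and 45000 in the others. Array medians were 84.5, 84.0 and 93.7 in beta-catenin tumours, and Arpp21 went against the array median over all tumours (r = -0.48, permutation adjusted p = 0.0116). The part of these sums and of the array median in the fall was not tested.

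In Ikaros Plastic tumours Ly6d fell by 3.33 ± 1.11 (adjusted p = 0.0276, 3 of 3 tumours), the 1 of 7 genes called, where 7.85% of all genes fell and 22.8% were called. The call was lost when any 1 of the 3 tumours was left out (adjusted p up to 0.125). ThPOK tumours gave a Ly6d difference of similar size that was not called (-2.95 ± 1.11, adjusted p = 0.0762). Array medians were 94.2, 106.4 and 95.9 in Ikaros Plastic tumours. Ly6d went against the array median over all tumours (r = -0.411, permutation adjusted p = 0.0482) but not within backgrounds (0.292). Their lowest, median and highest summed epithelial markers were 261, 1669 and 6424, against 108, 304 and 3313 in the others. Summed T cell markers were 9487, 15820 and 16980, against 1657, 17520 and 34440. The part of these in the fall was not tested.

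In TLX1 transgenic tumours Ets2 fell by 0.90 ± 0.31 (adjusted p = 0.0273, 5 of 6 tumours), the 1 of 7 genes called, where 12.5% of all genes fell and 31.5% were called. The call was lost without TLX1 tumours 2, 5 and 6 (-1.07, adjusted p = 0.104), with the Gapdh 3'/5' ratio as a covariate (-1.09, adjusted p = 0.252), with array weights (-0.91, adjusted p = 0.0574), and when TLX1 tumour 1, 2, 4 or 5 alone was left out. The lowest, median and highest summed B cell markers were 2462, 5362 and 13460 in TLX1 tumours, against 256, 2060 and 7503 in the others. Summed endothelial and stromal markers were 1474, 5970 and 8528 in TLX1 tumours, against 275, 2864 and 25570, and summed epithelial markers 453, 662 and 3313, against 108, 219 and 6424. Summed myeloid markers were 3048, 4852 and 45000, against 1000, 4630 and 10560. The part of these sums in the fall was not tested. Rag1 was at -1.65 ± 0.67 (adjusted p = 0.0548, 6 of 6 tumours lower, by far the most in tumours 1, 2 and 6). Of the 17 tested double positive genes 6 fell and 1 rose, Slamf1 (0.84 ± 0.31), where 12.5% of all genes fell. Among the falls were Lef1 (-2.31 ± 0.40), Cd8b1 (-2.04, adjusted p = 0.00409) and Cd8a (-1.83 ± 0.59). These list calls are from the main fit, which includes the 3 TLX1 arrays of high Gapdh 3'/5' ratio.

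In tumours labelled Nup98HoxD13 Rag2 rose by 2.45 ± 0.67 (adjusted p = 0.033, 3 of 3 tumours), the 1 of 7 genes called, where 1.37% of all genes rose and 3.01% were called. The call was lost when any 1 of the 3 tumours was left out (adjusted p up to 0.248), with a pseudocount of 1 (3.02, adjusted p = 0.0601), after quantile normalization (2.36, adjusted p = 0.0673) and with the Gapdh 3'/5' ratio as a covariate (2.31, adjusted p = 0.0522). Rag1 was at 1.55 ± 0.91 (adjusted p = 0.413), Arpp21 at 1.26 ± 0.65 (adjusted p = 0.336) and Dntt at 1.31 ± 0.85 (adjusted p = 0.464), all higher in 3 of 3 tumours and none called.

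TLX1 positive tumours were set against TLX1 negative ones as 6 against 41, the contrast that the genotype label states. Of the 7 genes 0 were called by limma, where 21.5% of all genes (1892) were, and 2 had an unadjusted p under 0.05. The count over all genes dropped to 7 with the Gapdh 3'/5' ratio as a covariate and to 134 without TLX1 tumours 2, 5 and 6. Rag1 averaged 8.78 ± 1.64 on the log2 scale in TLX1 positive tumours and 10.26 ± 1.66 in negative ones (SD, n = 6 and 41), a difference of -1.48 ± 0.69 (adjusted p = 0.122). Ets2 averaged 9.34 ± 0.60 and 10.08 ± 0.85, a difference of -0.74 ± 0.35 (adjusted p = 0.12). Both were lower in 5 of 6 TLX1 tumours. For Rag1, though, tumours 3, 4 and 5 (10.27, 10.23 and 10.23) lie at the negative mean. The Rag1 difference thus comes from tumours 1, 2 and 6 (7.47, 6.69 and 7.79). Their log2 Gapdh 3'/5' ratios were 0.27, 2.86 and 1.87, and that of tumour 5, at the negative mean for Rag1, was 2.37. The summed myeloid markers of tumour 2 were 45000, the highest of the series. Without TLX1 tumour 2 the Rag1 difference was -1.06. The part of RNA quality and of myeloid markers in it was not tested. Without p53 knockout tumour 2 and Cdkn2a knockout tumour 8, both TLX1 negative, Rag1 (-1.75, adjusted p = 0.00862) and Ets2 (-0.78, adjusted p = 0.0392) were called. These 2 tumours were chosen after seeing the data and have the lowest Rag1 signals of the series (13.8 and 12.8). Leaving them out raises the Rag1 mean of the negative side, so the Rag1 call is no separate check. For Ets2, Cdkn2a knockout tumour 8 is the lowest of the series (128) and p53 knockout tumour 2 among the highest (2799). With all tumours included, Rag2 (-0.72 ± 0.60), Dntt (0.11 ± 0.78), Cd1d1 (0.30 ± 0.22), Arpp21 (0.35 ± 0.62) and Ly6d (0.50 ± 1.10) were not called.

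Because E proteins activate Rag1, Rag2 and Dntt, the 6 backgrounds whose titles name E2A, Tal1 or an LMO gene were set against the other 7 TLX1 negative backgrounds. Of the 7 genes 1 rose and 0 fell, where 13.6% of all genes rose and 37.6% were called. Ly6d rose by 2.98 ± 0.63 (adjusted p = 0.000323). Its lowest, median and highest signals were 199, 3095 and 7323 in the 15 E protein linked tumours, against 13, 99.4 and 5055 in the other 26. Of the 15 linked tumours 14 lie above the mean of the other backgrounds, although the ranges overlap. The call held in all 47 fits with 1 tumour left out. Array medians were 49.5 to 71.9 in the linked tumours, against 62.5 to 106.4 in the other 26. Over all 47 tumours Ly6d went against the log2 array median (r = -0.411, permutation adjusted p = 0.0482), but not within backgrounds (r = 0.292). The part of the array median in this difference was not tested.

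The recombination genes were not called in this comparison. Dntt had 733, 2408 and 5718 in the linked tumours, against 8.79, 1158 and 4475 in the others, a difference of 1.04 ± 0.48 (adjusted p = 0.0867). Its other 2 probe sets differed by 0.97 ± 0.26 (adjusted p = 0.00367 over all probe sets) and 1.29 ± 0.51 (adjusted p = 0.0438), so the outcome for Dntt depends on the probe set. Arpp21 was at 0.69 ± 0.37 (adjusted p = 0.14), and its other 2 probe sets were below 0 (-0.18 ± 0.32 and -0.45 ± 0.22). Rag1 was at 0.55 ± 0.52 (adjusted p = 0.427), Rag2 at 0.24 ± 0.38 (adjusted p = 0.649), Ets2 at 0.20 ± 0.24 and Cd1d1 at 0.22 ± 0.14.

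The choice of backgrounds matters here, since Lmo1 goes against the labels olig1-LMO1 and Nup98HoxD13. With Nup98HoxD13 in place of olig1-LMO1 among the linked backgrounds, 4 of the 7 genes were called, all higher, and so were 2891 of the 8814 genes in either direction. Beside Ly6d these were Rag2 (1.54, adjusted p = 0.00198), Dntt (1.62, adjusted p = 0.00936) and Arpp21 (1.19, adjusted p = 0.0119). By mean level Nup98HoxD13 ranks 1, 3 and 1 of the 14 backgrounds for Rag2, Dntt and Arpp21, and olig1-LMO1 ranks 14, 11 and 12. The exchange raises these 3 differences by itself, so the calls restate those levels and are no separate check.

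**Figure D3:**
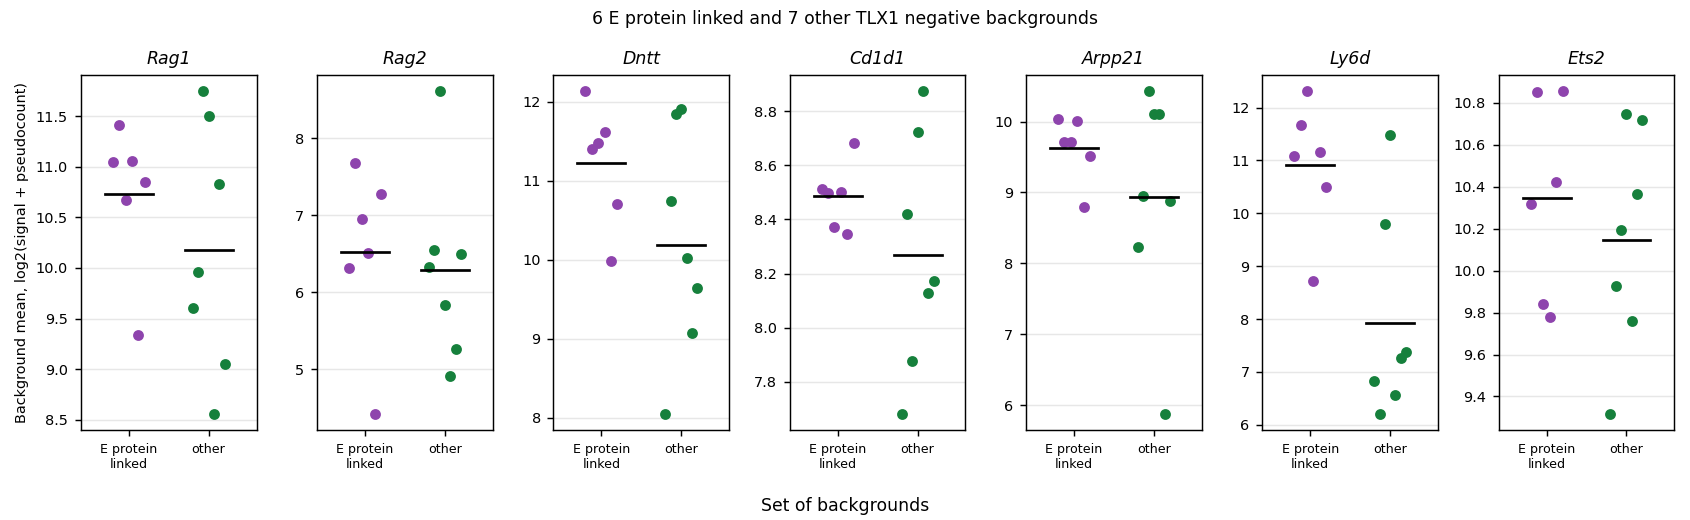
Mean log2(signal + 15.9) of each background, 1 point per background, for the 6 E protein linked backgrounds (left, purple) and the 7 other TLX1 negative backgrounds (right, green), with the mean of each set as a black line and a separate axis for each gene. The Ly6d lines are 2.98 apart, and for the other 6 genes the difference was not called.

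Over all genes 13.6% rose, 24% fell and 37.6% were called in this contrast, and these shares stand beside each list below. Of the 17 tested double positive genes 6 rose and 0 fell in the linked backgrounds, with a list median of 0.42 against -0.07 over all genes. They include Sh2d1a, an adaptor of SLAM receptors (1.35 ± 0.26, adjusted p = 0.000107), and Cd8a (1.22 ± 0.46, adjusted p = 0.0338), while Cd4 was at -0.61 ± 0.33 (adjusted p = 0.136). Of 12 early progenitor genes 2 rose, Notch1 (1.55 ± 0.37) and Il2ra (1.71 ± 0.52), and 8 fell, among them Spi1, a myeloid and progenitor transcription factor (-0.84 ± 0.15), where 24% of all genes fell. Of 8 tested recombination partners 2 rose, Xrcc4, an end-joining factor (0.26 ± 0.09), and Hmgb2, a DNA-bending cofactor of the RAG enzyme (0.38 ± 0.13). Of 15 tested regulators 5 rose, Tcf12 (0.56 ± 0.13), Bcl11b, Lef1, Satb1 and Myb, and 2 fell, Ikzf1 and the E protein inhibitor Id3 (-1.26 ± 0.33). Lef1 and Satb1 are also counted among the double positive genes that rose. Of 8 tested mature single positive genes 0 rose and 2 fell, Runx3 (-0.76 ± 0.14) and S1pr1 (-0.74 ± 0.22), near the 24% of all genes that fell. Summed T cell markers were 15230, 19390 and 34440 in the linked tumours, against 1657, 15240 and 24030 in the others. Summed endothelial and stromal markers were 275, 1569 and 5898, against 1168, 3608 and 25570. Summed myeloid markers were 1000, 2557 and 6885 in the linked tumours, against 2873, 5008 and 10560 in the others, and summed B cell markers were 256, 974 and 6646, against 326, 2368 and 7503. The part of these sums in the differences was not tested.

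The label rag E2A knockout adds rag to E2A, and Rag1 and Rag2 are its direct check. Rag1 read 2067 and 1609 in rag E2A knockout tumours, against 2604 and 1689 in E2A knockout tumours. Rag2 read 131 and 148 in rag E2A knockout tumours, against 203 and 13.2 in E2A knockout tumours. Both genes were above the array median in both rag E2A knockout tumours, so neither probe set shows a loss. A probe set outside a deleted or disrupted stretch would not show one, and the labels say neither which Rag gene is meant nor which allele.

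Of the 7 genes 0 were called between these backgrounds by limma, where 0.0454% of all genes were, and 0 had an unadjusted p under 0.05. The differences were -0.20 ± 1.51 for Rag1, 0.96 ± 1.11 for Rag2 and -1.44 ± 1.41 for Dntt. With 2 tumours a side, the SEs leave room for differences of several fold in either direction. Dntt read 1126 and 2408 in rag E2A knockout tumours, against 5165 and 3918 in E2A knockout tumours, with no overlap. Tcf3, the gene of E2A, read 227 and 276 in rag E2A knockout tumours and 146 and 275 in E2A knockout tumours, and its difference from the other 13 backgrounds was -0.97 ± 0.29 (adjusted p = 0.0752) in rag E2A knockout tumours and -1.28 ± 0.29 (adjusted p = 0.00562) in E2A knockout tumours. Tcf12 was not called in rag E2A knockout (0.14 ± 0.29) or E2A knockout tumours (0.49 ± 0.29).

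Double transgenic tumours were set against the single transgenic ones that share a gene in their titles. For Tal1-LMO2 against Tal1, 0 of 7 genes were called by limma, where 0.465% of all genes were, and 1 had an unadjusted p under 0.05. This was Ly6d, with 1004, 331 and 199 in Tal1-LMO2 tumours, against 7323 and 3546 in Tal1 tumours (-3.59 ± 1.69, adjusted p = 0.514). These signals do not overlap.

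For tumours labelled olig1-LMO1 against LMO1 tumours, 0 of 7 genes were called by limma, where 0.964% of all genes were, and 1 had an unadjusted p under 0.05. Rag2 read 1.5, 2.61 and 14.9 in tumours labelled olig1-LMO1, against 499, 45.1 and 257 in LMO1 tumours (-3.25 ± 0.91, adjusted p = 0.0744), again with no overlap. Rag1 read 1555, 1430.2 and 104 in tumours labelled olig1-LMO1, against 3625, 1585 and 3446 in LMO1 tumours (-2.07 ± 1.24, adjusted p = 0.673). Rag2 was called with a pseudocount of 1 (-5.11, adjusted p = 0.0302), without p53 knockout tumour 3 or LMO1 tumour 2 alone, and without p53 knockout tumour 2 and Cdkn2a knockout tumour 8 together (adjusted p = 0.039).

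The 7 genes were then compared with each other across the 47 tumours, over 21 pairs, with a permutation test of Pearson's r. The tumours share backgrounds, so r was also computed on deviations from the background means. Pearson's r ran from -0.12 to 0.74 with a median of 0.37, and 13 pairs had an adjusted p under 0.05, all with a positive r both over all tumours and within backgrounds. Dntt with Arpp21 gave the highest r (0.741, permutation adjusted p = 0.00021 from the smallest p that 100000 orders can give; rho = 0.662, adjusted p = 0.00021; 0.643 without the 2 tumours farthest from the Dntt median; 0.759 within backgrounds).

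Rag1 with Rag2, the convergent neighbours whose promoter windows are shown above, gave r = 0.573 (permutation adjusted p = 0.00035; rho = 0.578, adjusted p = 0.00028; 0.575 without the 2 tumours farthest from the Rag1 median; 0.534 within backgrounds). Rag1 with Dntt gave r = 0.591 (permutation adjusted p = 0.00035; rho = 0.59, adjusted p = 0.00028), which dropped to 0.355 without the 2 farthest tumours, those at the bottom for both genes. Rag1 with Arpp21 (r = 0.449, permutation adjusted p = 0.00987; rho = 0.506, adjusted p = 0.00155) dropped to 0.192, so Pearson's r over all tumours rests on those 2. Within backgrounds r was 0.711, but those 2 tumours are included there, so this value is no separate check. Cd1d1 had no relation with Rag1 (r = -0.01) or Rag2 (r = -0.12) that passed the test. Without Cdkn2a knockout tumour 8 the number of pairs past the test was 6, among them Rag1 with Rag2 (0.548), Rag1 with Dntt (0.486) and Dntt with Arpp21 (0.697).

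**Figure D4:**
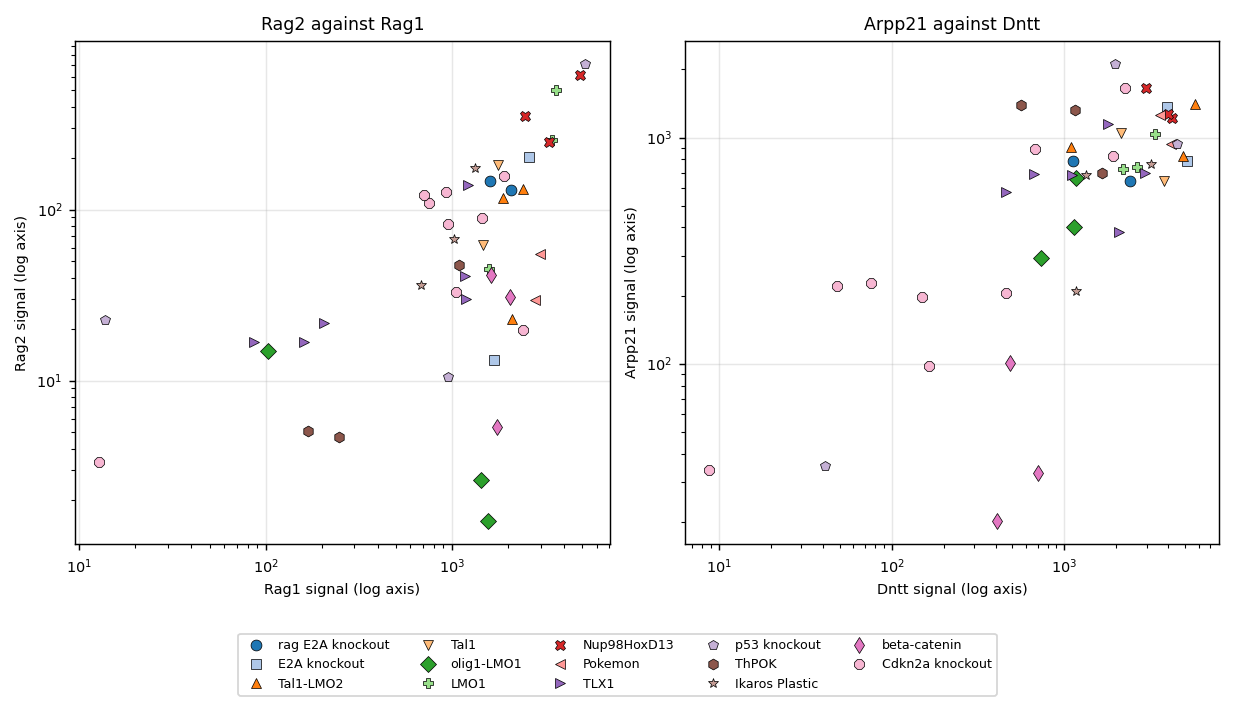
Rag2 against Rag1 signal (left) and Arpp21 against Dntt signal (right), both axes logarithmic and in arbitrary units, 1 point per tumour and 1 symbol per background. Rag1 and Rag2 rise together over most tumours (r = 0.573), while olig1-LMO1 tumours 1 and 2, with Rag1 at 1555 and 1430.2, have the lowest Rag2, and the 3 beta-catenin tumours lie low for Arpp21 at Dntt signals of 408 to 702.

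**Figure D5:**
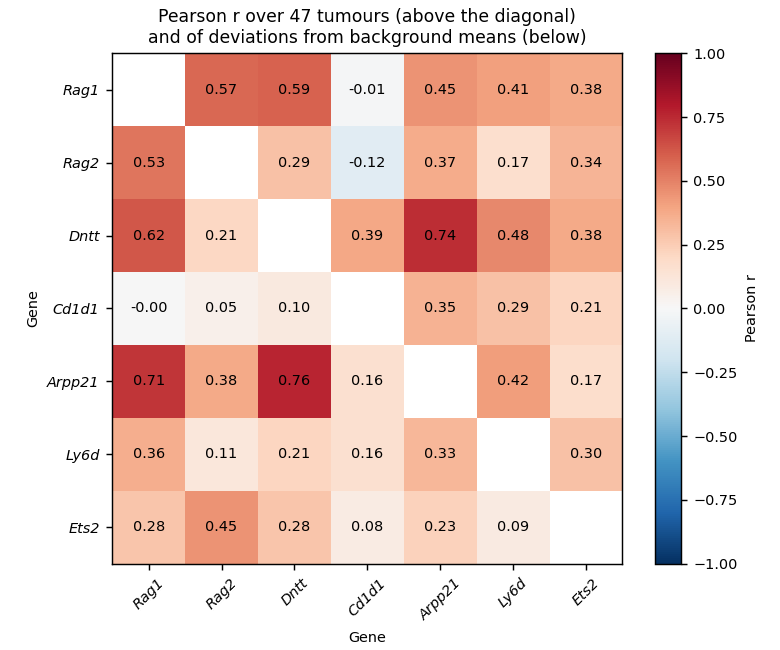
Pearson r of log2(signal + 15.9) for the 21 pairs of genes over 47 tumours (above the diagonal) and of deviations from background means (below it). Dntt with Arpp21 is highest on both sides (0.74 and 0.76), and Rag1 with Cd1d1 is nearest to 0 on both.

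Outside the 7 genes, the 3 tested genes with the highest r over the 47 tumours were listed for each one, as a description. Rag1 was most like Cd8a, the CD8 alpha chain (r = 0.731, and 0.813 within backgrounds), Cnot6 (0.706) and Nsg2 (0.704). Dntt was most like Patz1 (0.726), Tubgcp4 (0.683) and Bcl11b, a T lineage transcription factor (0.682). Arpp21 was most like Pag1, a membrane adaptor (0.797), Plxdc1 (0.736) and Dzip1 (0.736). Ly6d was most like Btg1, an antiproliferative gene (0.722), Ccnd3, cyclin D3 (0.672), and the transcript AY036118 (0.671). Rag2, Cd1d1 and Ets2 had likenesses of at most 0.603 (Spats2l), 0.692 (Meis3) and 0.566 (P4ha1). These r include p53 knockout tumour 2 and Cdkn2a knockout tumour 8, the lowest for Rag1 and Dntt, and are not given without them. Counted from the lowest of 47, these 2 tumours rank 6 and 1 for Cd8a and 1 and 2 for Bcl11b. They rank 1 and 7 for both Patz1 and Pag1, 3 and 2 for Ccnd3, and 24 and 18 for Btg1.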

How the data were processed

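RNA of 47 mouse tumours was hybridised to 1-colour Affymetrix arrays of 22690 probe sets. The values are linear signal intensities of the MAS5 algorithm, per the submitters' processing notes. As deposited, each array's mean signal after trimming 2% at each end was 250.063 to 250.129, so the authors' scaling was kept. Of the probe sets 20380 have 1 symbol in the platform annotation, 691 several and 1555 none. Scanner files and pixel backgrounds were not used here, and each array's median served as the background level.

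Signals were tested as log2(signal + 15.9) with limma 3.58.1 in R 4.3.3 (lmFit, eBayes with a variance trend, Benjamini-Hochberg adjustment). Control probe sets were dropped, a signal above the array median was required in at least 2 arrays, and the brightest probe set stood for a gene. SEs are limma's. Every adjusted p without another test named beside it is limma's. Correlations were tested with 100000 permutations in numpy 2.4.6, and with 10000 where tumours were left out. The limma procedure was tested on simulated data. Alternatives changed the pseudocount, scaling, filter, probe set, variance trend, array weights, replicate block, 3'/5' covariate and tumours included; leaving out p53 knockout tumour 2 with Cdkn2a knockout tumour 8, or TLX1 tumours 2, 5 and 6, was chosen after seeing the data.

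The genes and lists were chosen with earlier results of these data known. Named genes are the 7 members, Tcf3, Tcf12 and stage markers, the 3 genes most like each member and up to 4 genes per list of lowest F test p. Members of counts of 5 or fewer, and Id3 and Slamf6, were named after their values were seen. The lists hold recombination partners (12 genes, 8 tested), double positive genes (20, 17), Rag and Dntt regulators (16, 15), mature single positive genes (10, 8) and early progenitor genes (12, 12). Over the 14 backgrounds 5, 14, 13, 5 and 9 of the tested genes of these lists were called.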

Additional observations from a re-analysis of the deposited data

Results flagged for a closer look

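Within the backgrounds of 6 and 9 tumours, 14 tests for a value far from the rest (Dixon's 95% criterion) picked out 2 values, where chance picks about 1 in 20. Rag1 read 12.8 in Cdkn2a knockout tumour 8, the lowest of its 9, with a gap of 0.728 of the group's range. Rag2 read 139.9 in TLX1 tumour 3, the highest of its 6, with a gap of 0.646 of the range.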

How the results depend on the processing

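The counts of called genes and of correlated pairs stayed within 1.5 times in 91 cases and moved in 9, leaving aside fits with 1 tumour left out. Of the differences of each background, 17 were called with array weights, against 9. In the TLX1 contrast 2 genes were called without p53 knockout tumour 2 and Cdkn2a knockout tumour 8, and 0 to 1 with 1 tumour left out, 1 when it was either of those 2. In the E protein contrast 2 were called with the probe set of largest interquartile range and 4 with Nup98HoxD13 in place of olig1-LMO1, and 1 to 2 with 1 tumour left out, 2 without p53 knockout tumour 1. For olig1-LMO1 against LMO1, 1 was called with a pseudocount of 1, with array weights, and without p53 knockout tumour 2 and Cdkn2a knockout tumour 8, and 0 to 1 with 1 tumour left out. The number of correlated pairs ran from 6 to 15 with 1 tumour left out.

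With the title number as a replicate block 3 genes were called in the E protein contrast and 1 for olig1-LMO1 against LMO1, Rag1 varied between backgrounds (F = 2.31, adjusted p = 0.046), and Ets2 was no longer called in Cdkn2a knockout tumours (-0.68, adjusted p = 0.129). The title numbers showed no pairing on average. The mean correlation of deviations from background means was -0.0014 over 230 same-numbered pairs and 0.0010 over 772 others, with 27 and 101 pairs over 0.1. A mean over all pairs cannot exclude pairing within some of the backgrounds.

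Signs turned in few cases. Arpp21 in the E protein contrast was -0.18 at the 1 of its 3 probe sets with the highest p. Dntt in the TLX1 contrast was -0.019 at the 1 of its 3 probe sets with the highest p, -1.05 with the 3'/5' ratio as covariate, -0.24 with background as a random block, -0.14 without p53 knockout tumour 2 and Cdkn2a knockout tumour 8, and -0.48 without TLX1 tumours 2, 5 and 6. With 1 tumour left out, Dntt in the TLX1 contrast ran from -0.13 to 0.39 and Rag2 in the E protein contrast from -0.0022 to 0.48. Between rag E2A and E2A knockout, Rag1 ran from -0.51 to 0.11 and Rag2 from -0.49 to 2.42. The cause of these changes was not tested.

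Over all genes, the TLX1 contrast called 1892 genes, against 1089 with array weights, 7 with the 3'/5' ratio as covariate, 2 with background as a random block, 134 without TLX1 tumours 2, 5 and 6, and 1226 without TLX1 tumour 2. The E protein contrast called 3313, against 1040 with background as a random block. Rag E2A against E2A knockout called 4, against 2 with the filter at 6 arrays and 16 without E2A knockout tumour 2. Tal1-LMO2 against Tal1 called 41, against 105 with a pseudocount of 1, 8 with a pseudocount at the median, 5 after quantile normalization, 19 without a filter, 20 over every probe set, 13 with the replicate block, 3 to 92 with 1 tumour left out and 101 without p53 knockout tumour 2 and Cdkn2a knockout tumour 8. For olig1-LMO1 against LMO1 85 were called, against 137 with the probe set of largest interquartile range, 453 with array weights, 135 without those 2 tumours and 37 without LMO1 tumour 2.

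The number of arrays limits the precision, and groups of 2 or 3 tumours leave wide errors. Rag2 was above the array median in 21 tumours and below it in the others, where a pseudocount compresses differences, and detection was not analysed here. The labels olig1-LMO1 and Nup98HoxD13 are opposed by Lmo1, and 3 of 6 TLX1 arrays have a high 3'/5' ratio.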
